A study of Mus musculus with 4 samples.

Results

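The sebaceous gland genes described here are Awat2, Dgat2, Far1, Far2, Mgst1 and Mc5r, 6 of the 19532 mouse genes measured. They were chosen by symbol, as every probe annotated to 1 of the 6 names (13 of 32664 probes with 1 gene symbol), and the probes of a gene were averaged. Skin RNA of Tsk1/+ mice was hybridised together with a cell-line reference, named UMR in the labels and common to all arrays, on 4 2-colour arrays. Tsk1/+ mice carry a mutation in the fibrillin-1 gene and are used as a model of scleroderma, in which skin thickens and stiffens. The 4 arrays form 1 group (titles numbered 1-1, 1-2, 2-1 and 2-2). Genotype and tissue are labelled; age, sex, strain and skin site are not. No skin of wild-type mice was analysed here, so the values describe Tsk1/+ skin over cultured cells and hold no effect of the Tsk1 mutation. Separate animals are not stated for the 4 samples, so each p-value covers the spread between these samples only, which may be technical. In whole skin, more sebaceous cells and more RNA per cell cannot be told apart.

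Sebaceous glands sit beside hair follicles and burst to release sebum, an oily mixture of triglycerides, wax esters, cholesterol esters and free fatty acids that coats hair and skin. A wax ester is made by reducing a fatty acyl-CoA to a fatty alcohol and joining that alcohol to another acyl-CoA. The FAR enzymes carry out the reduction, and wax synthases such as AWAT2 carry out the joining. DGAT2, of the same enzyme family as AWAT2, makes triglycerides. MC5R, a receptor for melanocortin peptides, is known in mice as a regulator of sebum secretion. MGST1 is a membrane-bound glutathione transferase present in sebaceous glands and in many other tissues.

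On all 4 arrays the labels give Cy3 to skin and Cy5 to the reference, so dye effects and differences between skin and reference cannot be told apart. The deposited direction of the ratio is not stated and was read as likely from 14 genes of cornified epidermis, the outermost layer of skin. Their median deposited value lay between -6.29 and -5.42 on the 4 arrays, with 12 or 13 genes below 0 and none above. All signs were turned, so that a positive log2 ratio means skin above reference, and every direction below rests on this reading. An exact 0 was listed for 21.4% to 29.1% of the probes on an array, and such a 0 may mark a spot with no usable ratio. A further set of values was each shared by more than 100 probes of an array. Together with 0 they held 45.4% to 54.1% of the probes with a value.

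Of the 6 genes, 2 were higher in Tsk1/+ skin than in the reference and none was lower. To pass, a gene needed an adjusted p below 0.05 (limma, Benjamini-Hochberg over all genes) together with a mean log2 ratio of 1 or more in size. Of all 19532 genes tested, 18.5% passed, 11.0% as higher and 7.51% as lower. Dgat2 and Mgst1 passed. Awat2 stood far above the reference on 3 arrays and was listed at 0 on the fourth, Far1 lay below the reference without reaching the minimum size, and Far2 and Mc5r did not pass. No filter on low values was used, and all 6 genes were tested. An exact 0 appeared on at least 1 array for 3 of the 6 genes, against 30.1% of all genes.

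**Figure D1:**
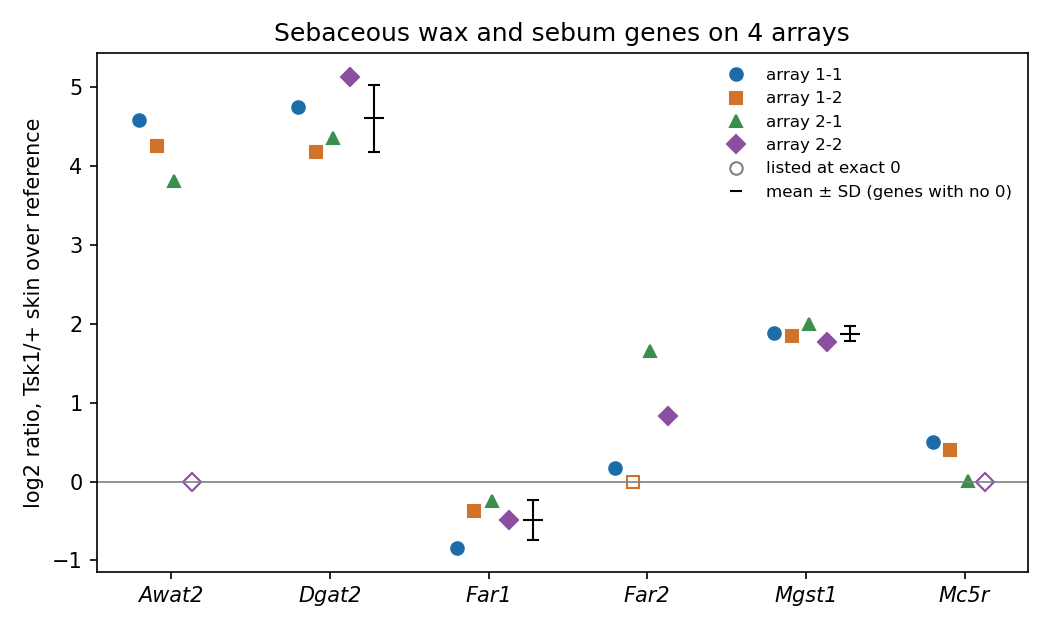
Log2 ratio of Tsk1/+ skin over reference (vertical axis) for each gene on each of the 4 arrays, with the mean ± SD for the 3 genes that have no exact 0; open symbols are values listed at exact 0. Dgat2 lies between 4.17 and 5.13 and Mgst1 between 1.77 and 2.00, while Awat2 lies between 3.81 and 4.58 on 3 arrays and at 0 on array 2-2.

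Awat2, the wax synthase, had 1 probe. Its log2 ratio of skin over reference was 4.58 on array 1-1, 4.25 on array 1-2 and 3.81 on array 2-1, with an exact 0 on array 2-2. On the first 3 of these arrays it exceeded 98.4%, 98.3% and 97.6% of all genes. With the 0 kept as a value Awat2 did not pass (limma, adjusted p = 0.0729). Without array 2-2 the mean was 4.21 (limma, adjusted p = 0.00587), so that 1 array decided the call. Without array 1-1, 1-2 or 2-1 the adjusted p was 0.217, 0.234 and 0.232.

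The 0 of Awat2 on array 2-2 was shared by other genes that were high elsewhere. Of 506 genes with a log2 ratio of at least 3 on the other arrays, 33 were listed at 0 on array 2-2, and the lowest value other than 0 among the 506 was 1.81. Counted the same way, 24 of 514 genes were listed at 0 on array 1-1, 3 of 481 on array 1-2 and 3 of 486 on array 2-1. Over the 4 arrays, 63 such genes fell below 1, all 63 of them at exact 0. Among sebum-related enzymes, Fa2h, a fatty acid hydroxylase, was also listed at 0 on array 2-2, with 4.99, 4.52 and 5.49 on arrays 1-1, 1-2 and 2-1. Elovl3, an elongase of sebaceous glands and brown fat, was listed at 0 there too, with 3.74, 3.13 and 2.88 on arrays 1-1, 1-2 and 2-1. Its value of 2.88 keeps it outside the 506 genes and the 33 of them at 0. Neither Fa2h nor Elovl3 passed (limma, adjusted p = 0.0731 and 0.0748). Without array 2-2 both did, with means of 5.00 and 3.25 (limma, adjusted p = 0.00631 and 0.00944). Dgat2 was not among the genes listed at 0 on array 2-2, where it had its highest value.

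**Figure D2:**
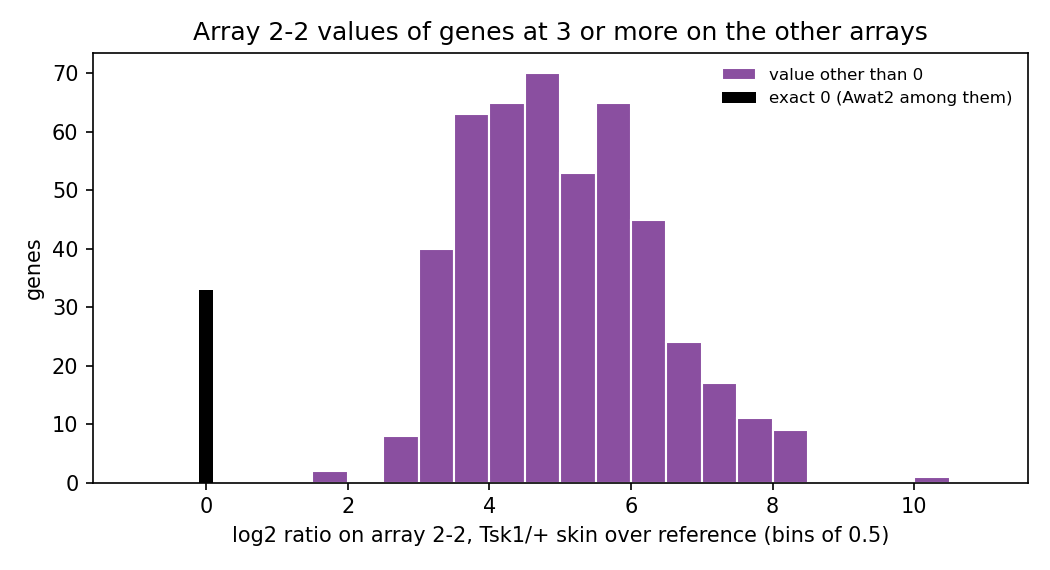
Number of genes (vertical axis) by log2 ratio on array 2-2 (horizontal axis, bins of 0.5) for the 506 genes at 3 or more on arrays 1-1, 1-2 and 2-1. The black bar holds the 33 genes listed at exact 0, Awat2 among them, and no other gene lies below 1.81.

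Awat2 lies on chromosome X in a cluster with Dgat2l6 and Awat1, other members of the DGAT2 family. Dgat2l6 was listed at 0 on all 4 arrays. Awat1 was not analysed here. The RefSeq table (GRCm38.p6) gives a pair of Awat2 start sites on the minus strand, and the 250 bases before each are shown because Awat2 is the gene of wax ester assembly. Capitals mark matches, on either strand, to the CCAAT box (CCAAT), the GC box (GGGCGG), the TATA box (TATAAA) or the half-site of nuclear receptors such as PPARs (AGGTCA). No match overlapped another.
Awat2 at chrX:100442718-100442967, minus strand: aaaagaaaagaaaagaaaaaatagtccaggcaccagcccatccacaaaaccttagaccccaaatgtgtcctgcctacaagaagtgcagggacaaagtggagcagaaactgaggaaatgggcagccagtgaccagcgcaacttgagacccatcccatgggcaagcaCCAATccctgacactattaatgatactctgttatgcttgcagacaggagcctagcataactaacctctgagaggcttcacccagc
Awat2 at chrX:100412588-100412837, minus strand: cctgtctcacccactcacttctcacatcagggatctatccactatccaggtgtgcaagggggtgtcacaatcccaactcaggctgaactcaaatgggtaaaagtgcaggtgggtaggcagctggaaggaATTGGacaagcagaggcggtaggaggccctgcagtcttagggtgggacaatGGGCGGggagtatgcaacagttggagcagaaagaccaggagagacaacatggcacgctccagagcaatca
Each window held 1 CCAAT match, which 33.8% of all 32851 such mouse windows also hold, and the second held 1 GGGCGG match, found in 32.7%. The pair held 1 and 3 CpG dinucleotides, against a median of 6 over all windows. Neither held TATAAA (12.4% of windows) or AGGTCA (14.0%).

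Dgat2, the triglyceride enzyme, had the highest mean ratio of the 6 genes. Its log2 ratio was 4.75 on array 1-1, 4.17 on array 1-2, 4.35 on array 2-1 and 5.13 on array 2-2. All 4 values were far above 0, and the mean of 4.60 ± 0.43 (SD, n = 4) corresponds to a 24.2-fold ratio (limma, adjusted p = 0.000637). The mean exceeded that of 98.7% of all genes. Its 3 probes, numbered by identifier as for every gene below, were at 4.06 ± 0.31, 5.04 ± 0.89 and 4.70 ± 0.25 (SD, n = 4 arrays each), and each passed when probes were tested singly (limma, adjusted p = 0.000835, 0.00362 and 0.000549). The second probe had the widest spread, with 6.17 on array 2-2 and 4.32 on array 2-1. The probes did not order the arrays alike: array 2-2 was the highest for the first and second probe and array 2-1 for the third. For the gene, arrays 1-1 and 2-2 were both above arrays 1-2 and 2-1, as for 62.1% of the 575 genes with a mean of at least 3 and no 0.

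The other neutral lipid acyltransferases went both ways. Dgat1, an unrelated enzyme for the same triglyceride step, had log2 ratios of 1.52, 1.68, 1.25 and 1.62 on arrays 1-1, 1-2, 2-1 and 2-2 and was higher in skin (mean 1.52 ± 0.19, SD, n = 4; limma, adjusted p = 0.00107). Mogat2, a monoacylglycerol acyltransferase best known from the intestine, was lower. It stood at -1.63, -2.36, -2.03 and -1.62 on arrays 1-1, 1-2, 2-1 and 2-2 (mean -1.91 ± 0.36, SD, n = 4; limma, adjusted p = 0.00254). Mogat2 is the protein-coding gene next to Dgat2 in the order of the GRCm38.p6 annotation, so these neighbours passed in opposite directions. Mogat1, of the same function, was at 0.74 ± 0.17 (SD, n = 4), under the minimum size, with probes from 0.45 to 1.08. With exact zeros left out it passed as higher (mean 1.11, limma, adjusted p = 0.000383). Of its 3 probes, 2 had shared values on all 4 arrays, and Mogat1 had no fit with shared values left out. In all, 6 of the 9 acyltransferases listed were measured. Of these, 2 were higher and 1 was lower, against 11.0% and 7.51% of all genes. Their median ratio was 1.13, against 0.02 for all genes tested. Dgat2 had the highest mean of the list, while on array 1-2 Awat2 (4.25) stood above Dgat2 (4.17).

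**Figure D3:**
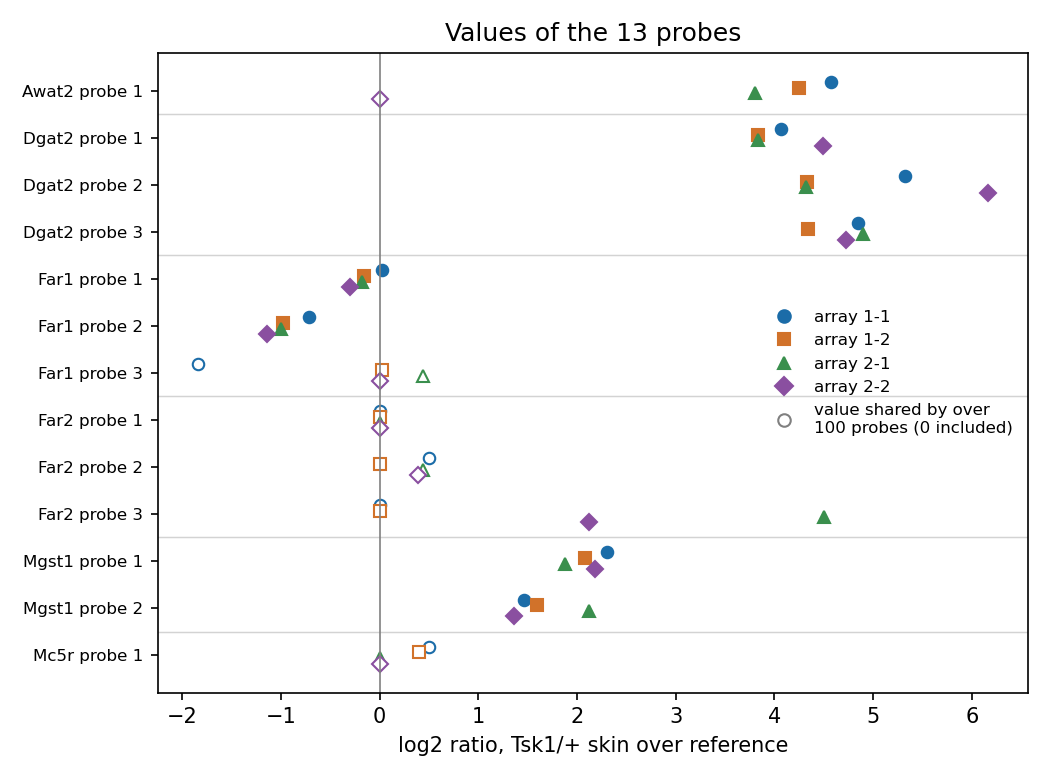
Log2 ratio of Tsk1/+ skin over reference (horizontal axis) for each of the 13 probes on each of the 4 arrays; open symbols are values shared by more than 100 probes of that array, exact 0 included. The 3 Dgat2 probes lie between 3.83 and 6.17, the Far1 and Far2 probes disagree among themselves, and the Mc5r probe has shared values on all 4 arrays.

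Far1 and Far2, the fatty acyl-CoA reductases that supply the alcohol of wax esters and of ether lipids, did not pass. Far1 is active in most tissues, and Far2 is known in mice from the sebum-rich glands of skin and eyelid. Far1 had log2 ratios of -0.85, -0.37, -0.25 and -0.48 on arrays 1-1, 1-2, 2-1 and 2-2. All 4 lay below 0, with a mean of -0.49 ± 0.26 (SD, n = 4), a 0.714-fold ratio under the minimum size (limma, adjusted p = 0.0407). Leaving out array 1-2, 2-1 or 2-2 took that adjusted p to 0.118, 0.0714 and 0.138.

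Of the 3 probes of Far1, the second lay below the first on all 4 arrays. The second probe was at -0.72, -0.98 and -1.15 on arrays 1-1, 1-2 and 2-2 and at -1 on array 2-1 (mean -0.96 ± 0.18, SD, n = 4; limma over probes, adjusted p = 0.00407). The first was at -0.15 ± 0.14 (SD, n = 4). The third gave -1.85 on array 1-1, 0.03 on array 1-2, 0.44 on array 2-1 and an exact 0 on array 2-2. Its values were each shared by 160 to 11530 probes of the same array. The low Far1 value on array 1-1 came with the last of these probes: the other probes had their highest values there.

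Far2 gave 0.17 on array 1-1, an exact 0 on array 1-2, 1.65 on array 2-1 and 0.84 on array 2-2. It missed the test (limma, adjusted p = 0.221). Its first probe was listed at 0 on all 4 arrays. Its second gave 0.50 on array 1-1, an exact 0 on array 1-2, 0.44 on array 2-1 and 0.39 on array 2-2, and each of these values was shared by 1551 to 10553 probes. The other probe reached 4.51 on array 2-1 and 2.12 on array 2-2, with exact zeros on arrays 1-1 and 1-2. The positive Far2 values on arrays 2-1 and 2-2 thus rested mainly on 1 probe. With exact zeros left out the mean was 1.41 and passed (limma, adjusted p = 0.0208).

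The 250 bases before the annotated starts of these paralogs are shown as a pair, since they carry out the same reaction. Capitals mark the motifs named for Awat2.
Far1 at chr7:113513584-113513833, plus strand: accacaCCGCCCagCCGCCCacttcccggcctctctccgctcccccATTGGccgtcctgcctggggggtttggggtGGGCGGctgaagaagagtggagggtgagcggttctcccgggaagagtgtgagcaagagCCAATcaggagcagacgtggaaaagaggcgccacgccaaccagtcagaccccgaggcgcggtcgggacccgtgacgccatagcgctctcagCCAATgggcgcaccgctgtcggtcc
Far2 at chr6:148047166-148047415, plus strand: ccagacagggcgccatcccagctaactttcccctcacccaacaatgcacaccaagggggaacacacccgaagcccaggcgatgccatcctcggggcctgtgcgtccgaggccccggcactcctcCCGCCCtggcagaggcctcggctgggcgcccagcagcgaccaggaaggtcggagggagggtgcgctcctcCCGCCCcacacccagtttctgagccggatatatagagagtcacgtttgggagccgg
The Far1 window held 3 CCAAT and 3 GGGCGG matches and 21 CpG dinucleotides. The Far2 window held no CCAAT match, 2 GGGCGG matches and 17 CpG dinucleotides. Both were richer in G and C (67.6% and 67.2%) than the Awat2 windows (48.4% and 54.4%), and the median over all windows was 52.4%. No TATAAA or AGGTCA match was present in either.

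None of the 6 measured genes for fatty alcohols and ether lipids passed, against 18.5% of all genes. With so few genes, this count is not read as a result about the list. Gnpat, a peroxisomal acyltransferase that starts ether lipid synthesis, was at 0.72 ± 0.14, and Agps, which uses the fatty alcohol in the next step, at -0.90 ± 0.15 (SD, n = 4 each). Both had adjusted p-values below the threshold (limma, 0.00292 and 0.00209) without reaching the minimum size. Aldh3a2, a fatty aldehyde dehydrogenase, was at -0.51 ± 0.37 (SD, n = 4), and Agmo, an ether lipid-cleaving enzyme, gave 1.21 on array 2-1, 0.75 on array 2-2 and exact zeros elsewhere. The list's median was 0.00, against 0.02 for all genes.

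Mgst1, the microsomal glutathione transferase, was higher in skin with the narrowest spread of the 6 genes. Its log2 ratio was 1.89, 1.84, 2.00 and 1.77 on arrays 1-1, 1-2, 2-1 and 2-2. The mean of 1.87 ± 0.10 (SD, n = 4) is a 3.67-fold ratio that exceeded 93.6% of all genes (limma, adjusted p = 0.000328). The narrow spread belonged to the average of its 2 probes. The first probe read 2.31, 2.08, 1.88 and 2.18 on arrays 1-1, 1-2, 2-1 and 2-2, and the second at 1.47, 1.60, 2.12 and 1.36. Array 2-1 had the lowest value of the first probe and the highest of the second. Both probes passed singly (limma, adjusted p = 0.000978 and 0.00529).

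Within the MAPEG family, the membrane proteins of glutathione and leukotriene metabolism to which Mgst1 belongs, 3 of 6 genes were higher and 1 was lower. Of all genes, 11.0% were higher and 7.51% lower. Ltc4s, which makes leukotriene C4 and is known from mast cells and macrophages, was the highest at 4.54 ± 0.46 (SD, n = 4; limma, adjusted p = 0.000713). Alox5ap, the helper protein of 5-lipoxygenase, was at 1.45 ± 0.15 (SD, n = 4; limma, adjusted p = 0.000781). Mgst2 was lower, at -1.45, -1.37, -1.50 and -1.34 on arrays 1-1, 1-2, 2-1 and 2-2 (mean -1.41 ± 0.08, SD, n = 4; limma, adjusted p = 0.000344). Mgst3 (0.94 ± 0.10, with probes from -0.04 to 1.47) and the prostaglandin E synthase Ptges (-0.44 ± 0.14) did not reach the minimum size (SD, n = 4 each). Mgst3 passed as higher with zeros left out (mean 1.04), with zeros and shared values left out (1.43) and by the median over probes (1.38), with limma's adjusted p at most 0.00170, which takes the count to 4 of 6.

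Mc5r, the melanocortin receptor of sebaceous and other exocrine glands, had 1 probe and did not pass (limma, adjusted p = 0.231). Its log2 ratio was 0.50 on array 1-1, 0.40 on array 1-2 and 0.003 on array 2-1, with an exact 0 on array 2-2. Each of the 4 values was shared with many other probes of the same array: 1625, 1927, 456 and 11530 probes on arrays 1-1, 1-2, 2-1 and 2-2 held the same number. Over all probes, 43.3% had shared values on all 4 arrays, as did 4 of the 13 probes described here.

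The other melanocortin receptors had low ratios too. Mc1r, the receptor of pigment cells, was at 0.77 ± 0.25, and Mc2r, the ACTH receptor, which lies next to Mc5r in the annotation, was at 0.58 ± 0.54 (SD, n = 4 each). Mc3r was at 0.31 ± 0.27 (SD, n = 4), and Mc4r gave 0.16 on array 1-1, an exact 0 on array 1-2, -0.43 on array 2-1 and 1.00 on array 2-2. The precursor of the melanocortin peptides, Pomc, was at 0.97, -0.10, -0.09 and 0.06 on arrays 1-1, 1-2, 2-1 and 2-2. None of these 5 genes passed. Mc1r, above 0 on all 4 arrays, missed only the minimum size (limma, adjusted p = 0.0112). The only probe of Mc1r, of Mc4r and of Pomc, and 1 of the 2 Mc3r probes, had shared values on all 4 arrays. The low ratios of Mc1r, Mc4r and Pomc thus carry the same limit as that of Mc5r, and the ratio of Mc3r carries it in part. The only Mc2r probe did not have shared values on all 4 arrays. Mrap, the accessory protein that carries the ACTH receptor to the cell surface and is known in mice from adrenal gland and fat cells, was the only one of the 7 measured genes of this list that passed. Its log2 ratio was 4.93, 5.24, 5.87 and 5.71 on arrays 1-1, 1-2, 2-1 and 2-2 (mean 5.44 ± 0.43, SD, n = 4; limma, adjusted p = 0.000515).

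**Figure D4:**
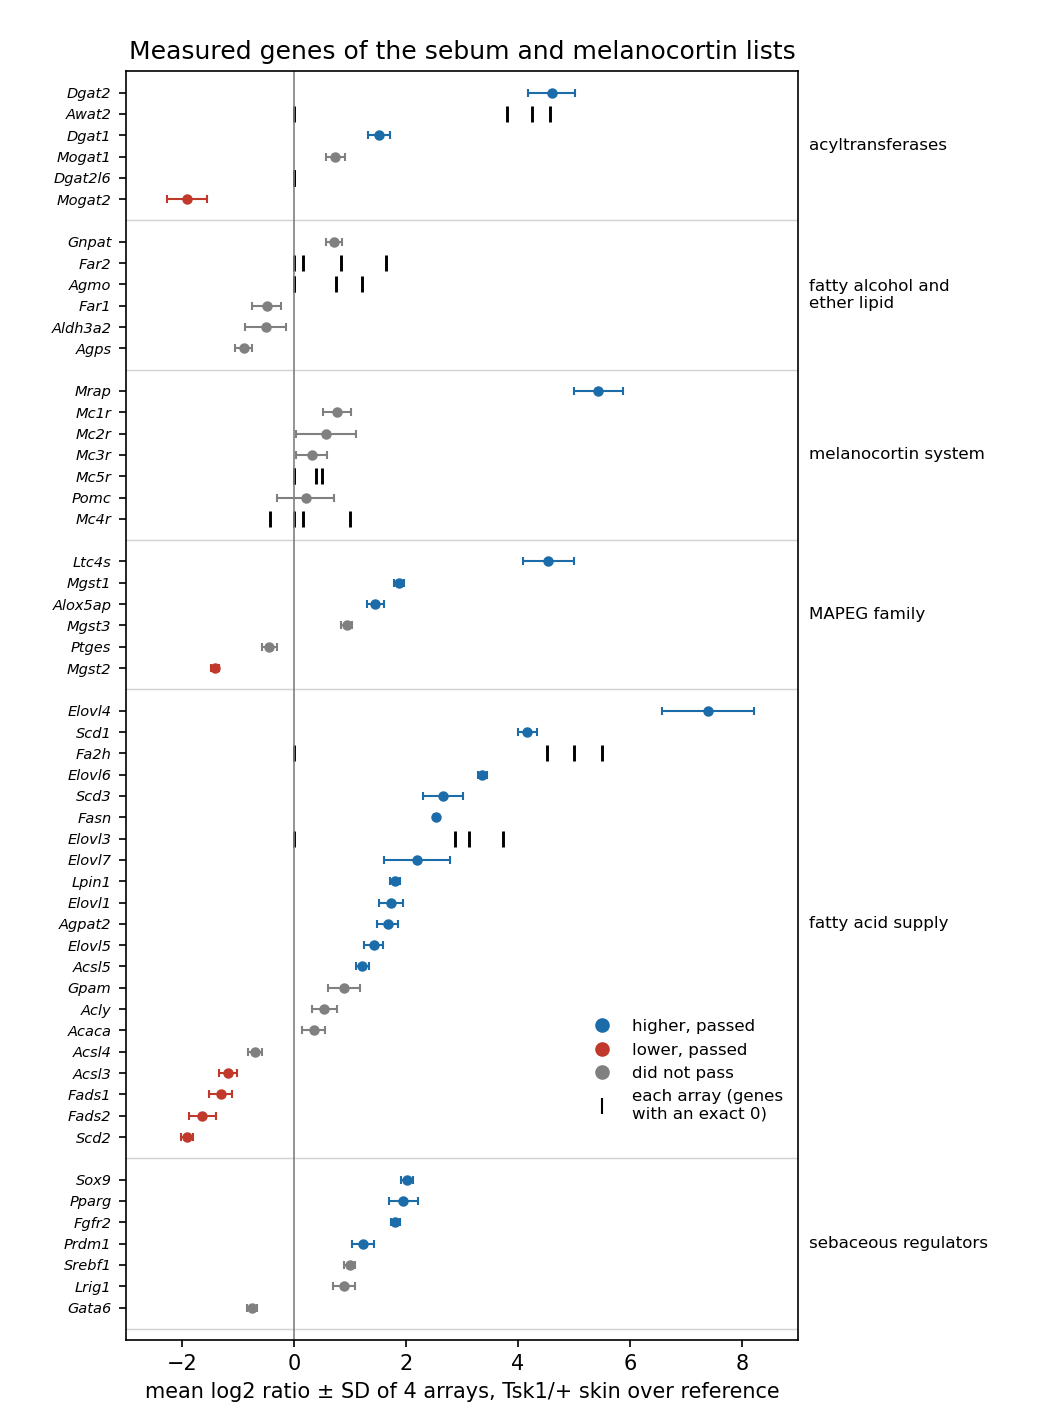
Mean log2 ratio of Tsk1/+ skin over reference ± SD of 4 arrays (horizontal axis) for each measured gene of the 6 lists; genes with an exact 0 on an array are drawn as their single array values. Dgat2 (4.60) leads the acyltransferases, Mrap (5.44) stands apart from the melanocortin receptors, and no gene of the fatty alcohol and ether lipid list passed.

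Genes listed for fatty acid supply were more often higher than lower, and the part of sebaceous cells in their values was not tested. Of 21 measured, 11 were higher and 4 lower, against 11.0% and 7.51% of all genes, and their median was 1.67. Elovl4, an elongase of very long chain fatty acids, was at 7.39 ± 0.82, Scd1, the desaturase of sebaceous glands and fat, at 4.17 ± 0.18, and Elovl6 at 3.36 ± 0.08 (SD, n = 4 each). The lowest were Scd2, a desaturase of brain and other tissues (-1.91 ± 0.11), and Fads2, a desaturase for polyunsaturated fatty acids (-1.64 ± 0.24; SD, n = 4 each). These 5 genes passed, with limma's adjusted p from 0.000211 (Elovl6) to 0.00152 (Fads2). Fa2h lay between Scd1 and Elovl6, with a mean of 3.75 when its 0 on array 2-2 was kept. It did not pass (limma, adjusted p = 0.0731).

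Of 7 measured regulators of sebaceous cells, 4 were higher and none lower, against 11.0% and 7.51% of all genes. The median of the 7 was 1.23. Sox9, a stem cell factor of the hair follicle and gland, was at 2.02 ± 0.11, and Pparg, the lipid-sensing nuclear receptor that drives both sebaceous and fat cell maturation, at 1.95 ± 0.26 (SD, n = 4 each). The growth factor receptor Fgfr2 was at 1.81 ± 0.08, and Prdm1, a repressor linked to sebaceous precursors, at 1.23 ± 0.20 (SD, n = 4 each). All 4 genes passed, with limma's adjusted p from 0.000303 (Fgfr2) to 0.00177 (Prdm1). The 3 probes of Fgfr2 had means from 0.11 to 3.32, and 1 of them had shared values on all 4 arrays. Its narrow spread is that of the probe average. Srebf1, the activator of fatty acid synthesis genes (1.00 ± 0.10), Lrig1, a stem cell marker (0.89 ± 0.20), and Gata6 (-0.74 ± 0.09) did not reach the minimum size (SD, n = 4 each). The probes of Gata6 ranged from -1.12 to 0.02, and it passed as lower with zeros left out (-1.03), with zeros and shared values left out (-1.08) and by the median over probes (-1.03). Srebf1 passed after quantile normalization (1.01) and without array 1-2 (1.04), and Prdm1 did not pass against a 2-fold change (limma, adjusted p = 0.234).

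Most measured markers of fat, muscle, epidermis, macrophages and dermal fibroblasts passed as higher. Over all genes, 11.0% passed as higher and 7.51% as lower, the shares to set beside each marker count. Of 8 measured sebaceous markers other than the 6 genes, 4 were higher (Krt79, Cidea, Scd1 and Scd3) and 1 lower (Fads2), with array medians from 2.06 to 3.20. The others did not pass: Plin2 (0.915 ± 0.163, SD, n = 4), Elovl3 (0 on array 2-2) and Dgat2l6 (0 on all 4 arrays). Scd1, Scd3, Fads2 and Elovl3 also belong to the fatty acid list. Of 9 measured adipocyte markers, 8 were higher, with array medians from 4.85 to 5.25, and the other, Adig, was listed at 0 on all 4 arrays. The call of Lep was lost without array 1-2, 2-1 or 2-2 (limma, adjusted p = 0.0870, 0.0565 and 0.0628). Cidec (7.69 ± 0.46), Plin1 (7.17 ± 0.89) and Adipoq (6.60 ± 0.62; SD, n = 4 each) led the adipocyte markers. Fat cells also express Dgat2, Dgat1, Mrap, Pparg and Scd1, and their part in the values of these genes was not tested. Skeletal muscle markers (7 of 7 higher), cornified epidermis (12 of 14, the list that set the direction), basal keratinocytes (7 of 8), macrophages (5 of 6) and dermal fibroblasts (5 of 7) passed as higher in the shares given. Of 7 hair follicle markers, none was higher and 1, Padi3, was lower, a call lost without array 1-2, 2-1 or 2-2. Krt71 and Krt27, keratins of the inner root sheath, stood at 6.21 and 5.01 on array 1-1, against at most 1.57 and 0.29 on the other arrays. Of 5 mammary and 4 hepatocyte markers, none passed, and 4 of each had a 0 on at least 1 array. Without array 1-1, where both were listed at 0, the hair keratin gene Krt32 and the hepatocyte marker Cyp2e1 passed as higher (means 4.08 and 5.36; limma, adjusted p = 0.00855 and 0.00373). The reference channel can also hold any of these genes, and a ratio gives no level in skin.

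The genes closest to 3 of the 6 in their 4 array values were found by the root mean square difference over the 4 arrays, among 13639 other genes with no 0. Dgat2 was closest to Fcrls (0.0427), Mapk13 (0.0575) and Spns2 (0.114). Far1 was closest to Pom121 (0.0220), Lcp1 (0.0436) and Rsf1 (0.0627). Mgst1 was closest to Aldh1a1 (0.0564), Fcgr2b (0.0631) and Lrrc17 (0.0842). Awat2, Far2 and Mc5r have a 0 on an array and were not compared.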

How the data were processed

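Per the labels' protocols, RNA (200 ng) of Tsk1/+ skin was reverse transcribed with Agilent's Quick-Amp kit and labelled. The log ratios deposited by the authors compare the channels of an array, probe by probe, and were treated here as log2. How background and normalization were handled, the log base and the direction were not given in the sources used here. Scanner intensities were not used. As to the base, of 3120 pairs among the 40 commonest values of each array, 21 lay 4-fold apart as log2 (tolerance 0.001), 2 as natural log and 4 as log10. Each deposited column had a median of 0, which lies among the zeros, so the centring of the arrays stays unknown. Pearson correlations between arrays across genes were 0.867 to 0.918.

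Of 41174 probes, 32664 have 1 gene symbol in the platform annotation, 45 several and 8465 none; symbols were updated by Entrez ID (32524 matched GRCm38.p6). Signs were turned, probes were averaged per gene and exact zeros were kept. The mean of each gene with values on at least 3 arrays was tested against 0, two-sided. The test used lmFit and eBayes of limma 3.58.1 (R 4.3.3), with Benjamini-Hochberg adjustment. The fit was first run on simulated normal values, which held no exact zeros or shared values. That run says nothing about genes such as Awat2 that hold a 0. Figures used matplotlib 3.10.9 in Python 3.11.15. Precision is limited by the number of arrays.

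The 6 genes, the 6 gene lists, the 10 marker lists and the naming rule were chosen with earlier results of these data known. The rule names the 6 genes, the measured genes of the lists and, of fatty acid supply and marker lists, the highest 3 and lowest 2, of which the text gives the leading ones, and the 3 genes of most similar values.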

Additional observations from a re-analysis of the deposited data

Results flagged for a closer look

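Each of 143 sets of 4 array values (the 6 genes, their probes, every measured gene of the pathway and marker lists and the genes of most similar values) was checked for 1 array far from the others. The check was Dixon's test of its gap to the nearest value over the whole range, and it flagged 18 sets. Chance alone would flag about 1 of 20 sets if the values were continuous and normally distributed. Exact zeros break that condition, since any value is flagged where all the others are 0. The 18 can therefore not be set against that rate. Awat2 was listed at 0 on array 2-2, against 3.81 to 4.58 on the other arrays. Pomc stood at 0.97 on array 1-1, against -0.10 to 0.06 on the others, and its 4 values were each shared by more than 100 probes. Mc3r stood at 0.72 on array 2-2, against 0.15 to 0.21 on the others.

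The other 15 were marker genes. Mrc1 was listed at 0 on array 2-2, against 6.09 to 6.66 elsewhere, and Cyp2e1 at 0 on array 1-1, against 5.04 to 5.63. On array 1-1, Krt71 stood at 6.21 (0.69 to 1.57 elsewhere), Krt27 at 5.01 (0 to 0.29) and Adgre1 at 1.19 (0.98 to 0.99). On array 2-1, Trp63 stood at 3.14 (2.03 to 2.11 elsewhere) and Perp at 5.66 (5.54 to 5.55). On array 2-2, C1qb stood at 7.05 (5.56 to 5.81 elsewhere) and Csn2 at -0.33 (0 to 0.07). A further 6 were listed at exact 0 on the other arrays: Krt2 at 0.88, Krt25 at 0.44 and Tchh at 1.87 on array 2-1, Krt35 at 0.69 and Wap at -0.50 on array 2-2, and Alb at 1.41 on array 1-2.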

How the results depend on the processing

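Dgat2 and Mgst1 passed under each of the 18 and 17 alternatives run for them (means from 4.06 to 5.04 and from 1.64 to 2.11, adjusted p at most 0.0191 for each). Far1 and Mc5r did not pass under any of 18 and 14 alternatives run, with means from -0.96 to -0.15 and from 0.13 to 0.30. Awat2 passed with exact zeros left out (mean 4.21, limma, adjusted p = 1.90e-05) and with zeros and shared values left out (mean 4.21, adjusted p = 1.55e-06). It also passed with arrays centred on their non-zero median (mean 3.09, limma, adjusted p = 0.0381). With the first or second title number fitted as a random block effect it passed as well (mean 3.16 in both, limma, adjusted p = 0.0448 and 0.0437). The fitted correlation within blocks was below 0 (-0.311 and -0.263), so calls gained that way add no support. Leaving out 1 array at a time gave Awat2 means of 2.69 to 4.21, and it passed without array 2-2. Far2 passed with zeros left out (mean 1.41, adjusted p = 0.0208), an alternative that raised the number of the 6 genes called higher to 4, and did not pass under 14 others. A test against a 2-fold change called 1338 genes higher and 694 lower, in place of 2150 and 1466. Single probes gave 3771 higher and 3096 lower calls among 41174 probes tested, where the main test had 19532 genes. Pomc turned to -0.043 without array 1-1 (range over left-out arrays -0.043 to 0.31) and Mc4r to -0.09 without array 2-2 (-0.09 to 0.38). Among the other pathway genes 24 results gained a call and 5 lost it; with zeros left out 4 acyltransferases in place of 2 were higher, and against a 2-fold change 2 fatty acid genes in place of 4 were lower and 3 macrophage markers in place of 5 higher. Far2 and Mc5r could not be fitted without shared values, since too few values were left, and Awat2, Far2 and Mc5r, which hold a 0, were not in the test of genes without one. The Far2 probe at 0 on all arrays has no direction and was not counted. No paired analysis was possible because the series as used here holds 1 group. Without detection calls, values near 0 cannot be read as equal signal or as no signal.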

Other observations

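Exact zeros were also listed for genes of other cell types that were high elsewhere. Mrc1, a macrophage receptor, was listed at 0 on array 2-2, with 6.63, 6.09 and 6.66 on arrays 1-1, 1-2 and 2-1. On array 1-1 the hair keratin gene Krt32 (4.21, 4.55 and 3.48 on arrays 1-2, 2-1 and 2-2) and Cyp2e1, a cytochrome P450 best known from liver (5.41, 5.04 and 5.63), were listed at 0.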
